A study of Homo sapiens with 6 samples.

Results

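The genes described here are the fibril, network and other collagen chains together with the proteins that fold, hydroxylate, trim and crosslink them. They were chosen as all genes of the deposited gene table whose symbol is COL, a number, A and a number, joined with 14 listed enzyme, chaperone and enhancer genes. This gave 54 of the 17156 genes of the table, 40 chain genes and 14 others. No gene there carried the symbol COL4A1, COL6A5, COL9A1 or COL19A1, so the levels of these chains could not be read. The RNA came from SiHa, a line of human papillomavirus-positive cervical squamous carcinoma cells, in which a short hairpin RNA against VPS13C (shVPS13C, 3 libraries) or a control hairpin (shcontrol, 3 libraries) was expressed. Every library, controls included, came from cells kept for 48 h in 20 µM cisplatin, a drug that crosslinks DNA, so the comparison is between knockdown and control under the drug and holds no untreated cells. The labels do not say whether the replicates were separate cultures or how many hairpins were used. Nor do they say whether the cells were a clone or a pool. The spread behind each p-value is that among these libraries, which may be technical. In the edgeR fit the spread of a gene is also drawn towards that of other genes. An edgeR p-value therefore does not measure the spread of that gene's own values alone.

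The libraries held 15643965 to 16333424 estimated counts, of which 0.141% to 0.157% fell on collagen chain genes. VPS13C, which encodes a lipid transfer protein of organelle contacts, stood at 50.0, 54.9 and 49.6 counts scaled to library size (CPM) in shcontrol 1, 2 and 3 and at 23.7, 25.1 and 27.5 CPM in shVPS13C 1, 2 and 3. Its log2 fold change, shVPS13C over shcontrol, was -1.02 (SE 0.065, edgeR adjusted p = 4.77e-10), with no overlap of the groups. Of 10 markers of squamous and simple epithelium, KRT8, KRT18 and KRT17 led with means of 1448, 1111 and 939 FPKM in shcontrol. FPKM is a level scaled to library size and transcript length. The basal keratin gene KRT5 had only 2 counts in all 6 libraries. TP63, of the same list, had a mean of only 0.277 FPKM in shcontrol. Of the 9 tested markers of that list CDH1 (log2 0.27) and ITGB4 (0.29) rose, LAMB3 (-0.29) fell and 6 did not pass (edgeR, adjusted p under 0.05, which 4.50% of all tested genes reached). The summed level of 8 fibroblast markers, which include the chains COL1A2 and COL3A1, was 0.410 to 0.480 FPKM in the shcontrol libraries and 0.620 to 0.730 FPKM in the shVPS13C libraries. Over all 6 libraries COL3A1 had 83 counts, FAP 51, COL1A2 24, LUM 22, PDGFRB 8, PDGFRA 5, THY1 5 and DCN 3. The mean FPKM of each of the 8 was higher in shVPS13C, with 0.177 and 0.230 in FAP and 0.0733 and 0.120 in LUM, and the libraries of FAP and of LUM overlapped between the groups. The summed level of 4 smooth muscle and pericyte markers was 0.0600 to 0.240 FPKM, and that of 4 endothelial markers 0.530 to 0.990 FPKM, in all libraries. Of 5 leukocyte markers, PTPRC had no count and CD68, which other cells also express, a mean of 39.7 FPKM in shcontrol.

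Collagens are trimers of chains with long glycine-rich repeats. In the endoplasmic reticulum, prolyl 4-hydroxylases stabilise the triple helix, lysyl hydroxylases prepare the sites of later crosslinks, and the chaperone HSP47, made from SERPINH1, binds the folded helix until it leaves for the Golgi. Outside the cell, proteinases such as BMP1 cut off the end pieces, and lysyl oxidases crosslink the fibrils. In squamous epithelium the best known collagens are those of the basement membrane zone, among them the anchoring fibril collagen VII, the hemidesmosomal collagen XVII and the network-forming collagen IV.

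Few of the 40 chain genes were abundant in SiHa cells. A mean of at least 1 FPKM over the 6 libraries was reached by 9 chains, and 18 passed the filter on low counts and were tested. COL12A1, the chain of a fibril-associated collagen, had a mean of 71.3 FPKM, and COL7A1, the chain of anchoring fibrils, one of 66.3 FPKM. COL6A1, a chain of beaded filaments, followed with 25.8 FPKM and COL4A5, a basement membrane chain, with 16.2 FPKM. These 4 genes held 88.1% to 90.7% of the summed FPKM of all chain genes in each library. COL6A2 (6.73 FPKM), COL17A1 (4.27), COL1A1 (3.11), COL5A1 (2.42) and COL11A2 (1.12) made up the rest of the 9. Among the chain genes below the filter, 1 (COL21A1) had no count, and the highest, COL5A2, had 51 counts over all 6 libraries.

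**Figure D1:**
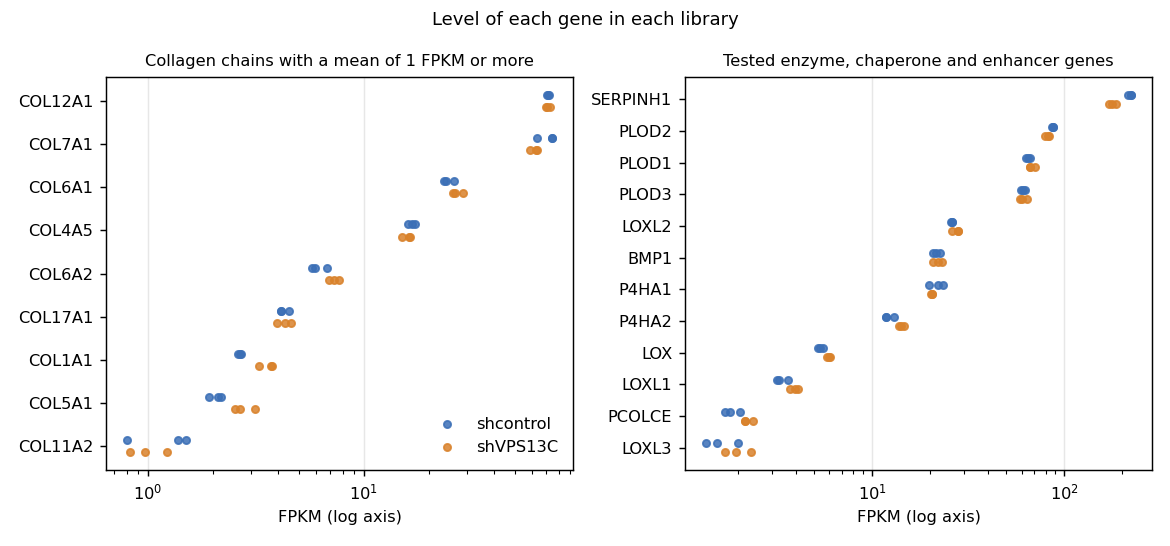
Level of each gene in FPKM (log axis) in each of the 3 shcontrol and 3 shVPS13C libraries (dots), with collagen chains that average 1 FPKM or more on the left and the 12 tested enzyme, chaperone and enhancer genes on the right. SERPINH1 is the highest of all with a mean of 199 FPKM, and COL12A1 and COL7A1 lead the chains at 71.3 and 66.3 FPKM.

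Chains that share a trimer in other tissues were present at unequal levels, compared per length. The pair of COL4A1 and COL4A2 could not be compared, because COL4A1 was not among the genes given. COL1A1 stood at a mean of 3.11 FPKM and its usual partner in collagen I, COL1A2, at 0.0533 FPKM, with 24 counts over the 6 libraries. COL5A1 stood at 2.42 FPKM and its partner in collagen V, COL5A2, at 0.0917 FPKM. COL11A2 stood at 1.12 FPKM, while COL11A1 had 3 counts in all libraries together. Collagen VI had COL6A1 and COL6A2 but only 2 counts of COL6A3 in the 6 libraries. The 1 pair with both chains at 0.5 FPKM or more was COL6A1 and COL6A2, whose FPKM ratio was 4.03, 4.10 and 3.87 in shcontrol 1, 2 and 3 and 3.73, 3.74 and 3.63 in shVPS13C 1, 2 and 3. The ratio was lower in each shVPS13C library than in any shcontrol library, by 0.11 on the log2 scale (exact two-sided permutation p = 0.1, the smallest that 3 against 3 allows).

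In the test between groups, 6 of the 30 tested members passed an adjusted p of 0.05 (edgeR quasi-likelihood). This is 20% of them, where 4.50% of all 12671 tested genes did. The members were chosen with earlier results of these data known, so the 2 shares are not independent of that choice. SERPINH1, COL7A1 and COL11A2 were lower in shVPS13C, where the background for that direction is 2.23%. COL1A1, COL5A1 and P4HA2 were higher, against a background of 2.27%. The other 24 tested members did not pass, and a further 24 of the 54 were not tested. The median log2 fold change of the 30 tested members was 0.09 and that of all tested genes -0.00. CPM of the groups did not overlap in 8 members that were higher in shVPS13C (background 11.8%) and in 4 that were lower (background 11.3%), against 23.1% of all tested genes in either direction. In bulk RNA, fewer cells of a type and less RNA per cell cannot be told apart. Without shVPS13C 1 or shVPS13C 2 the count of members past the threshold was 3. The count of lower members was 1, SERPINH1, without any single library except shcontrol 1, and the count of higher members was 5 without shcontrol 3. DESeq2 called 4 of the 6, leaving out COL7A1 and COL11A2, and limma-trend on the deposited FPKM called SERPINH1 alone. The count over all tested genes fell in these settings too, from 570 in the main fit. It was 204 to 463 with 1 library left out, 337 with DESeq2 and 147 or 151 with limma-trend.

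**Figure D2:**
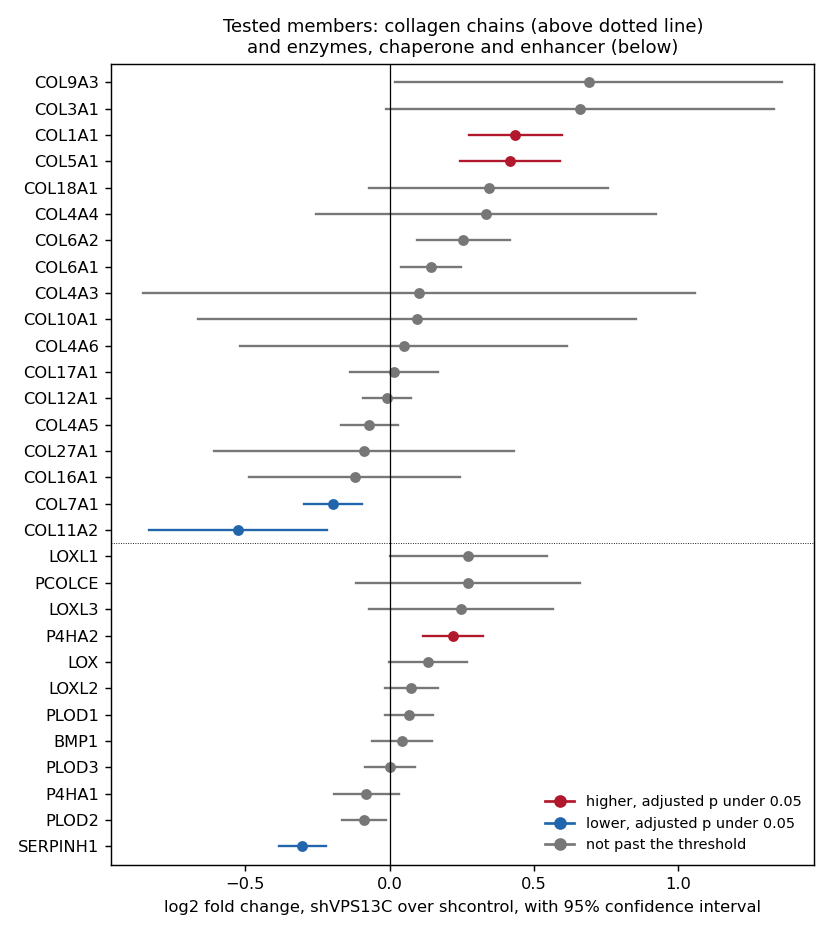
Log2 fold change (shVPS13C over shcontrol) of the 30 tested members with 95% confidence intervals from the edgeR fit, the 18 chains above the dotted line and the 12 other genes below it. SERPINH1, COL7A1 and COL11A2 lie below 0 and COL1A1, COL5A1 and P4HA2 above 0 past the threshold, and the intervals of the low chains such as COL4A3 and COL9A3 are wide.

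Of the fibril-forming chains, COL1A1 rose. It encodes the alpha 1 chain of collagen I, the main collagen of skin and bone, and lies on chromosome 17 at 50184101 to 50201631 (GRCh38). COL1A1 stood at 14.7, 14.6 and 14.9 CPM in shcontrol 1, 2 and 3 and at 20.8, 20.6 and 18.4 CPM in shVPS13C 1, 2 and 3. The groups lay well apart, and the 3 shcontrol values were close to each other. The means were 14.7 ± 0.172 and 19.9 ± 1.33 CPM (SD, n = 3), a fold of 1.35 (log2 0.43, SE 0.078, 95% confidence interval 0.27 to 0.60; adjusted p = 0.00171). The call held without any 1 library (adjusted p up to 0.0224) and with DESeq2. It was missed with limma-trend on log2(FPKM + 1) (0.32, adjusted p = 0.0569) and on log2(FPKM + 0.1). The added 1 draws the log2 values of genes at a few FPKM towards 0, so 0.32 and 0.43 are unlike measures. As a fold of mean FPKM, COL1A1 stood at 1.35. COL3A1, the chain of collagen III and a fibroblast marker, had 0.492 to 0.769 CPM in shcontrol and 0.939 to 1.16 CPM in shVPS13C. The groups of COL3A1 did not overlap, and its log2 fold change of 0.66 (95% confidence interval -0.01 to 1.33) did not pass (adjusted p = 0.277). The summed fibroblast markers given above were higher in every shVPS13C library. That sum includes COL3A1 and COL1A2, so it is not independent of the COL3A1 values. The part of the fibroblast markers in the collagen values was not tested.

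COL5A1, the alpha 1 chain of collagen V, which starts and limits the width of collagen I fibrils, rose as well. It stood at 15.5, 17.1 and 17.8 CPM in shcontrol 1, 2 and 3 and at 20.5, 25.3 and 21.5 CPM in shVPS13C 1, 2 and 3. All shVPS13C libraries lay above all shcontrol libraries, with replicate 2 the highest. The means were 16.8 ± 1.16 and 22.4 ± 2.50 CPM (SD, n = 3; log2 0.42, SE 0.084, 95% confidence interval 0.24 to 0.59, adjusted p = 0.00442). Without shVPS13C 2 the log2 fold change was 0.33 and the adjusted p 0.0522. COL11A2, a chain of the cartilage collagen XI, had 4.80, 6.58 and 6.99 CPM in shcontrol and 4.04, 4.70 and 4.01 CPM in shVPS13C. The lowest shcontrol library was close to the highest shVPS13C library, without overlap. The group means of COL11A2 were 6.12 ± 1.16 and 4.25 ± 0.389 CPM (SD, n = 3), and it fell by 0.52 on the log2 scale (SE 0.149, adjusted p = 0.0437). On the deposited FPKM scale its groups overlapped, with 0.800 FPKM in shcontrol 1 and 1.22 FPKM in shVPS13C 2. The call ended without shcontrol 2 (adjusted p = 0.160), shcontrol 3 (0.167), shVPS13C 1 (0.163), shVPS13C 2 (0.0729) or shVPS13C 3 (0.155), with DESeq2 (0.157) and with limma-trend (0.612). With limma-trend on log2(FPKM + 1) its log2 value was -0.14, drawn towards 0 by the added 1. As a fold of mean FPKM, COL11A2 stood at 0.821.

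COL7A1, which encodes the anchoring fibrils that tie squamous epithelium to the connective tissue under it, fell by a small amount from a high level. It stood at 573, 658 and 668 CPM in shcontrol 1, 2 and 3 and at 524, 568 and 565 CPM in shVPS13C 1, 2 and 3. The groups did not overlap, but shcontrol 1 lay only just above the highest shVPS13C library. The means were 633 ± 52.5 and 552 ± 24.6 CPM (SD, n = 3), a fold of 0.873 (log2 -0.20, SE 0.049, 95% confidence interval -0.30 to -0.10, adjusted p = 0.0200). The call ended without shcontrol 2 (adjusted p = 0.0809), shcontrol 3 (0.0783), shVPS13C 1 (0.157), shVPS13C 2 (0.0504) or shVPS13C 3 (0.0545), with DESeq2 (0.185) and with limma-trend (0.158). The log2 value lay between -0.26 and -0.16 with 1 library left out.

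The start regions of COL5A1 and COL7A1, the most abundant of the called chains with an entry in the promoter table in each direction, are printed to show what surrounds their first transcribed bases. Both come from RefSeq (GRCh38.p14), run 5′ to 3′ on the gene's strand from 250 bases before the start to 50 after it, and carry the GC box GGGCGG, read on both strands, in capitals. COL5A1 is at chr9:134641553-134641852 on the plus strand and COL7A1 at chr3:48595280-48595579 on the minus strand.

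COL5A1: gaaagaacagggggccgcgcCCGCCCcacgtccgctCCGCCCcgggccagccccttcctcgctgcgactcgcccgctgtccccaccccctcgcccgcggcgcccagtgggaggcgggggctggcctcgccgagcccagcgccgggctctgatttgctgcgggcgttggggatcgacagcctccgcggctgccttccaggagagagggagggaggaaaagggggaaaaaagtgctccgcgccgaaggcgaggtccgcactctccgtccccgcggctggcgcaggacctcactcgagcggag

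COL7A1: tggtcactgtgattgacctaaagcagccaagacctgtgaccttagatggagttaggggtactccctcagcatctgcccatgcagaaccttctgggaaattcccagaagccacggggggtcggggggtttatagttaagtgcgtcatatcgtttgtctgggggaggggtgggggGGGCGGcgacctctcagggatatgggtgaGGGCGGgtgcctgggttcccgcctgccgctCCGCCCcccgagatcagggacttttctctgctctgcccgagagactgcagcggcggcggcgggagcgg

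The window of COL5A1 held 2 GC boxes, both more than 200 bases before the start, and that of COL7A1 held 3, of which the nearest began 18 bases before the start. Of 27305 windows of the same length over all genes, 44.6% held at least 1 GC box, and of the 24 tested members with a window 13 did. The letters of the TATA box, TATAAA, read on both strands, were in 12% of all windows and not in that of COL5A1. In the window of COL7A1 they occurred once, on the opposite strand only (printed as tttata), beginning 124 bases before the start.

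Collagen VI is the microfibrillar collagen that surrounds many cells. Its genes COL6A1 and COL6A2 lie on the same strand of chromosome 21, 93063 bases apart. COL6A1 stood at 94.5, 91.8 and 103 CPM in shcontrol and at 101, 114 and 104 CPM in shVPS13C, and the groups overlapped through shcontrol 3. Its log2 fold change was 0.14 (95% confidence interval 0.04 to 0.25, adjusted p = 0.109). COL6A2 stood at 18.6, 18.0 and 21.2 CPM in shcontrol and at 21.7, 24.3 and 23.0 CPM in shVPS13C, with no overlap. Its log2 fold change was 0.26 (95% confidence interval 0.10 to 0.42, adjusted p = 0.0613). Neither passed. Without shcontrol 3, the highest control library for both, COL6A1 passed at 0.19 (edgeR adjusted p = 0.0369) and COL6A2 at 0.33 (0.0255). With any other single library left out neither passed. The log2 values then went down to 0.09 for COL6A1 and 0.21 for COL6A2, and the adjusted p up to 0.390 and 0.220. COL6A2 also passed with the robust quasi-likelihood fit (0.0422) and with no filter on low counts (0.0315).

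**Figure D3:**
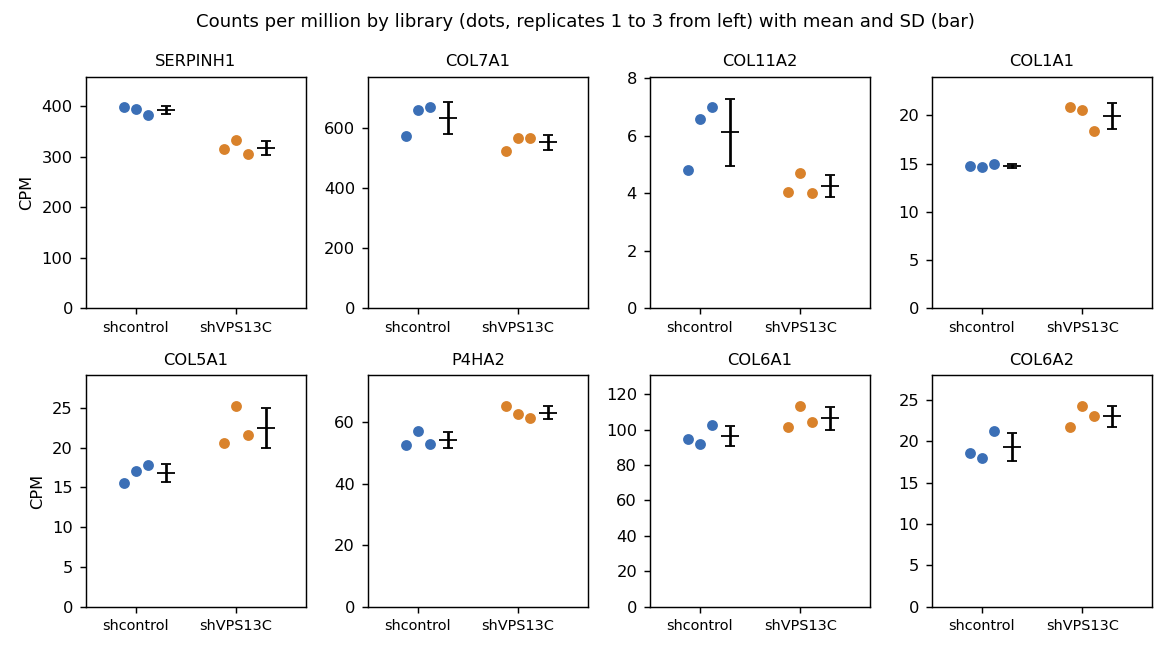
CPM of the 6 called members and of COL6A1 and COL6A2 in each library (dots, replicates 1 to 3 from left), with the mean and SD of each group of 3 (bar). The groups are apart in all panels but COL6A1, where shcontrol 3 at 103 CPM lies above shVPS13C 1 at 101 CPM.

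The other abundant chains did not pass. COL12A1 stood at 637, 615 and 604 CPM in shcontrol and at 593, 606 and 644 CPM in shVPS13C, with groups that overlapped. Its log2 fold change was -0.01 with a 95% confidence interval of -0.09 to 0.07, so a change beyond 0.09 on the log2 scale lay outside the interval. COL17A1, a transmembrane chain of hemidesmosomes, had 21.8 to 24.0 CPM in shcontrol and 21.2 to 24.5 CPM in shVPS13C (log2 0.01, interval -0.14 to 0.17). COL4A5, with 91.7 to 98.7 CPM in shcontrol and 85.7 to 95.3 CPM in shVPS13C, had a log2 value of -0.07 (interval -0.17 to 0.03, adjusted p = 0.453). The remaining tested chains, COL3A1, COL4A3, COL4A4, COL4A6, COL9A3, COL10A1, COL16A1, COL18A1 and COL27A1, each had a mean under 1 FPKM. Their log2 values ran from -0.12 in COL16A1 to 0.69 in COL9A3, and none passed.

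Genes of collagen IV lie head to head in pairs. COL4A5 and COL4A6 start 379 bases apart on chromosome X, and COL4A3 and COL4A4 135 bases apart on chromosome 2. COL4A5 had 16.7, 15.97 and 17.2 FPKM in shcontrol and 15.0, 16.4 and 16.2 FPKM in shVPS13C. COL4A6 had 0.380, 0.310 and 0.140 FPKM in shcontrol and 0.270, 0.300 and 0.320 FPKM in shVPS13C. In each library, COL4A5 exceeded its neighbour by 43.9 to 123 times per length. COL4A3 and COL4A4 were both low, with means of 0.112 and 0.147 FPKM. The windows around the starts of COL4A5 and COL4A6 are printed because they share 121 bases, read from opposite strands. They come from RefSeq (GRCh38.p14), at chrX:108439588-108439887 on the plus strand and chrX:108439409-108439708 on the minus strand, each 5′ to 3′ from 250 bases before the start to 50 after it. The CCAAT box, read on both strands, is in capitals.

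COL4A5: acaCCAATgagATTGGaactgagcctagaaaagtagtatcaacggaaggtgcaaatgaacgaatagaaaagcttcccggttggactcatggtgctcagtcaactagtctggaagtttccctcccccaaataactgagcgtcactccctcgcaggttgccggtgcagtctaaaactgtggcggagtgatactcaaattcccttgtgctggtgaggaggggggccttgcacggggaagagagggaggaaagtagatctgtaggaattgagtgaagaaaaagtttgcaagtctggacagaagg

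COL4A6: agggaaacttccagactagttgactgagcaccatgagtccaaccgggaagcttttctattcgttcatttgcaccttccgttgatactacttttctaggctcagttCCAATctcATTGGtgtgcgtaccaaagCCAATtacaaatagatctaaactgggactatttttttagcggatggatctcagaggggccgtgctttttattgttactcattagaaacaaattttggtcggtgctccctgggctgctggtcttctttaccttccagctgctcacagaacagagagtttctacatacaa

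The CCAAT letters occurred 2 times in the window of COL4A5 and 3 times in that of COL4A6, where 35.7% of all windows hold at least 1. The pair at the far end of the COL4A5 window, 247 and 239 bases before its start, is the same pair of sites that lies 145 and 137 bases before the start of COL4A6. Neither window held a GC box or a TATA box.

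SERPINH1, the collagen chaperone gene, was the most abundant member and the one with the smallest p. It stood at 398, 396 and 383 CPM in shcontrol 1, 2 and 3 and at 316, 334 and 305 CPM in shVPS13C 1, 2 and 3. Every shVPS13C library lay far below every shcontrol library. The means were 392 ± 8.19 and 318 ± 14.4 CPM (SD, n = 3), a fold of 0.811 (log2 -0.30, SE 0.040, 95% confidence interval -0.38 to -0.22, adjusted p = 6.87e-05). The call held under all 13 other settings run, including each library left out (log2 -0.34 to -0.27) and limma-trend on FPKM (adjusted p = 0.0151). SERPINH1 is known as a target of the heat shock factor HSF1. Its start region (RefSeq, GRCh38.p14, chr11:75562003-75562302, plus strand, 5′ to 3′) is printed with the letters of paired heat shock units, GAANNTTC and TTCNNGAA, in capitals.

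SERPINH1: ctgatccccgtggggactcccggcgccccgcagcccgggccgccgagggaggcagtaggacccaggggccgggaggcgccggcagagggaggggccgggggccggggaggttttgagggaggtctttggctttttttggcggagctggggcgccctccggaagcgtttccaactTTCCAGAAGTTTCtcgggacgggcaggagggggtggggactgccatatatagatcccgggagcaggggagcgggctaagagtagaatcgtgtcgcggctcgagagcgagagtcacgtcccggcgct

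The capitals form 1 run of 13 bases that begins 76 bases before the start, where the 2 motifs overlap in GAA. Of all windows, 6.87% held GAANNTTC and 7.84% held TTCNNGAA, and both are the same on either strand. Among the 24 tested members with a window, 5 held the first motif and 1, SERPINH1, the second. A match of letters is a description of the window and not evidence of a bound factor.

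The level of SERPINH1 was set against that of its client chains. The summed FPKM of all 40 chain genes was 195, 205 and 210.0 in shcontrol 1, 2 and 3 and 191, 203 and 201 in shVPS13C 1, 2 and 3. The groups overlapped (203 ± 7.78 and 199 ± 6.32 FPKM, SD, n = 3; exact two-sided permutation p = 0.4). SERPINH1 per summed chain, as a ratio of FPKM, was 1.14, 1.09 and 1.02 in shcontrol and 0.928, 0.916 and 0.849 in shVPS13C. The groups did not overlap, with a log2 difference of -0.27 (exact two-sided permutation p = 0.1, the smallest that this design allows). The log2 difference of the chain sum was -0.03, so the ratio restates the fall of SERPINH1 and is no separate result. Within the chain total, the share of COL7A1 was 32.8% to 36.2% in shcontrol and 30.6% to 31.4% in shVPS13C. The shares of COL6A1, COL6A2, COL1A1 and COL5A1 were larger in shVPS13C on average, at 13.6%, 3.68%, 1.80% and 1.39% against 12.1%, 3.02%, 1.31% and 1.02%. Shares are parts of 1 whole, so a smaller share of COL7A1 enlarges others, and they restate the values of each gene.

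**Figure D4:**
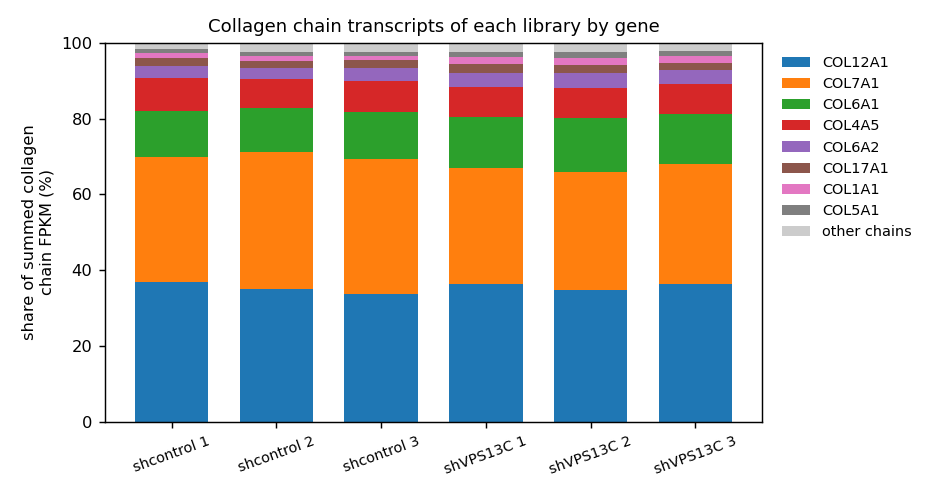
Share of each collagen chain gene in the summed collagen FPKM of each library (stacked bars, percent), with the 8 most abundant chains named. COL12A1 and COL7A1 together take most of each bar, and the COL7A1 part is 32.8% to 36.2% in shcontrol and 30.6% to 31.4% in shVPS13C.

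Among the prolyl 4-hydroxylases, which act on proline in the collagen repeats, the catalytic subunit gene P4HA2 rose. It stood at 52.5, 57.2 and 52.8 CPM in shcontrol 1, 2 and 3 and at 65.3, 62.7 and 61.2 CPM in shVPS13C 1, 2 and 3. The groups did not overlap. The means were 54.2 ± 2.59 and 63.1 ± 2.08 CPM (SD, n = 3; log2 0.22, SE 0.051, 95% confidence interval 0.12 to 0.32, adjusted p = 0.0134). The call ended without shcontrol 1 (log2 0.20, adjusted p = 0.0504) or shVPS13C 1 (0.19, 0.103) and with limma-trend on FPKM (0.20, 0.106), and 6.45% of its exon bases lie opposite the antisense gene P4HA2-AS1. Its relative P4HA1 had 56.8, 59.5 and 51.4 CPM in shcontrol and 53.0, 52.5 and 53.1 CPM in shVPS13C. The groups of P4HA1 overlapped, and its log2 value was -0.08 (interval -0.19 to 0.03, adjusted p = 0.451). P4HA3 was all but absent, with 4 counts in the 6 libraries. The hypoxia response core ACGTG was in 21.6% of all windows and in 7 of the 24 tested members with a window. It occurred in the window of P4HA1 and not in that of P4HA2, and both genes are known targets of the hypoxia-inducible factor. The P4HA2 window, up to 132227341, lies inside the gene, which reaches 132227853 on the minus strand. Bases around that outer end were not read.

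The lysyl hydroxylases were abundant and none passed. PLOD2, which hydroxylates the telopeptide lysines, had the highest level, with a mean of 84.5 FPKM. It stood at 301, 298 and 300.5 CPM in shcontrol and at 284, 274 and 287 CPM in shVPS13C. The groups of PLOD2 did not overlap, with a log2 value of -0.09 (interval -0.17 to -0.01, adjusted p = 0.182). PLOD1, which acts on helical lysines, had 172 to 178 CPM in shcontrol and higher values in each shVPS13C library, up to 192 CPM (log2 0.07, interval -0.02 to 0.15, adjusted p = 0.391). PLOD3, which also transfers sugars to hydroxylysine, had a mean of 155 CPM in each group (log2 0.00, interval -0.09 to 0.09).

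The 4 tested genes of the lysyl oxidases, copper enzymes that start collagen crosslinks, had log2 values above 0 and none passed. LOXL2 was the most abundant of them, with 89.0 to 90.4 CPM in shcontrol and 89.6 to 96.6 CPM in shVPS13C (log2 0.07, adjusted p = 0.382). LOX had 25.8, 24.6 and 26.4 CPM in shcontrol and 27.6, 28.6 and 27.9 CPM in shVPS13C, without overlap. Its log2 value was 0.13 (interval -0.00 to 0.27, adjusted p = 0.274). LOXL1 (0.27, adjusted p = 0.266) and LOXL3 (0.25, adjusted p = 0.412) were lower in level, at means of 3.66 and 1.83 FPKM, and LOXL4 had 26 counts in all libraries and was not tested. LOXL1 and LOXL3 have 9.21% and 19.3% of their exon bases opposite other genes. BMP1, the proteinase that cuts the C-terminal end from procollagen, had 58.0 to 62.4 CPM in shcontrol and 58.7 to 64.3 CPM in shVPS13C (log2 0.04, interval -0.06 to 0.15). PCOLCE, which enhances that cut, had 2.07 to 2.50 CPM in shcontrol and 2.63 to 2.88 CPM in shVPS13C (log2 0.27, adjusted p = 0.467), and 16.6% of its exon bases lie opposite PCOLCE-AS1.

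**Figure D5:**
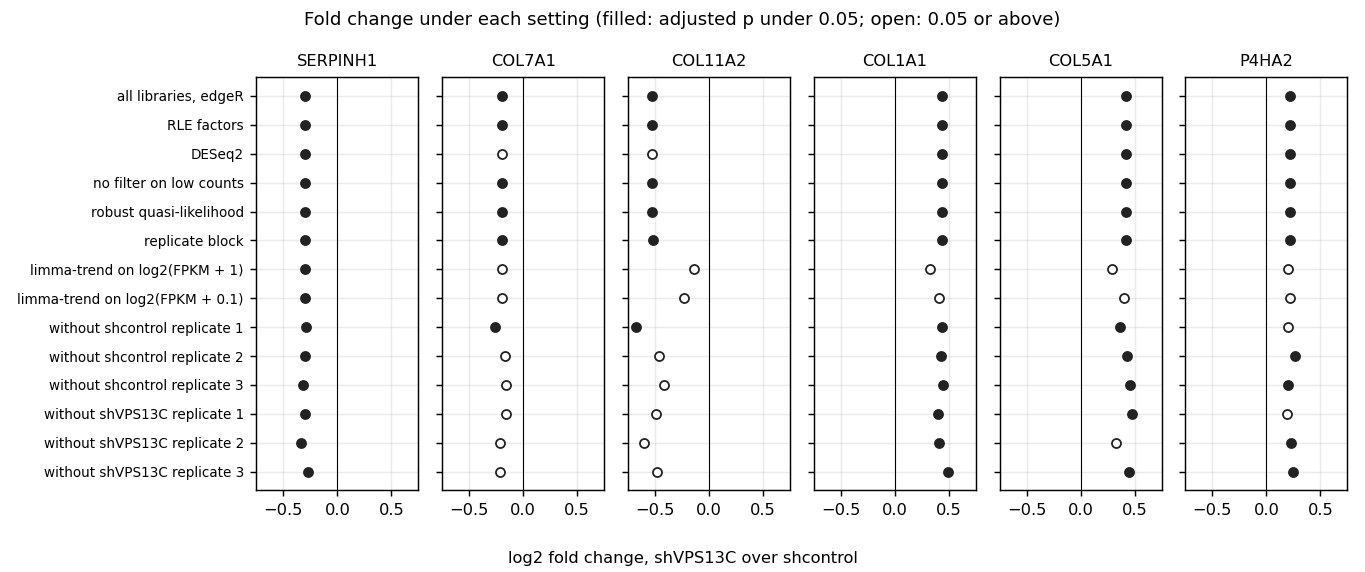
Log2 fold change of the 6 called members under the edgeR fit of all libraries and the 13 other settings (rows), with filled dots where the adjusted p is under 0.05. SERPINH1 is filled in every row, COL1A1 in all but the 2 limma-trend rows, and COL7A1 and COL11A2 are open in 8 rows each.

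Partners of the pathway outside the 54 genes were read from 6 lists. In the list of procollagen folding, 2 of 19 tested genes rose and 17 did not pass. Over all tested genes 2.27% rose and 2.23% fell, 4.50% in either direction, and this is the background for each of the 6 lists. P4HB, the protein disulfide isomerase subunit of the prolyl 4-hydroxylases, rose by 0.13 on the log2 scale (adjusted p = 0.0410), and FKBP14, a prolyl isomerase of the endoplasmic reticulum, by 0.21 (0.0163). The P4HB call ended without any 1 library (adjusted p up to 0.138) and with the replicate block (0.0810), and that of FKBP14 without shVPS13C 1 (0.102) or shVPS13C 3 (0.0606). The list's median was 0.02. In the list of procollagen export, 2 of 19 tested genes fell, both of the COPII coat that carries procollagen from the endoplasmic reticulum, and 17 did not pass. SEC23A stood at 141, 143 and 126 CPM in shcontrol and 118, 107 and 122 CPM in shVPS13C (log2 -0.24, adjusted p = 0.00785), and SEC31A fell by 0.16 (0.0190). SEC23A lost its call without shVPS13C 2 (0.0794), and SEC31A without shcontrol 3 (0.0581), shVPS13C 1 (0.0795), shVPS13C 2 (0.0503) or shVPS13C 3 (0.108). The median of that list was -0.07.

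Of the fibril partners, 6 were tested. FBLN1, a matrix glycoprotein, had means of 380.3 ± 20.5 CPM in shcontrol and 472 ± 14.5 CPM in shVPS13C (SD, n = 3). It rose by 0.31 on the log2 scale (adjusted p = 8.76e-05), and this call held without any 1 library. TNC, the matrix protein tenascin C, rose by 0.25 (adjusted p = 0.00714; 0.0837 without shVPS13C 3). TNXB, a tenascin that binds fibrils, fell by 0.32 (adjusted p = 0.0171). TNXB lost its call without shcontrol 3 (0.0868), shVPS13C 1 (0.0703), shVPS13C 2 (0.0721) or shVPS13C 3 (0.0654) and with DESeq2 (0.0635). The median of the 6 was 0.19. Among 7 tested collagen receptors, ITGA1, an integrin subunit for collagens, rose by 0.33 (adjusted p = 0.00823; 0.0681 without shVPS13C 1), and the median was -0.10. Of 6 tested turnover genes, the collagenase gene MMP1 had means of 25.8 ± 1.58 CPM in shcontrol and 19.8 ± 0.991 CPM in shVPS13C (SD, n = 3). It fell by 0.39 on the log2 scale (adjusted p = 0.00267), which held without any 1 library. PEPD, which splits proline dipeptides, rose by 0.23 (adjusted p = 0.0288). The PEPD call ended without any 1 library but shcontrol 1 (0.0555 to 0.166) and with DESeq2 (0.0870), and the median of the list was 0.02. None of 2 tested genes of extracellular processing passed (edgeR), with FURIN, a proprotein convertase gene, at 0.10 (unadjusted p = 0.0240, adjusted p = 0.184). With limma-trend on FPKM, of the 10 called partners FBLN1 and MMP1 alone passed.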

How the data were processed

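Single-end reads of 50 bases of total RNA from 6 SiHa libraries were made on the DNBSEQ platform, per the labels. The build is hg38, per the submitters' processing notes. Which aligner, counter, annotation or strand setting was applied is not given in the sources used here. Deposited gene and transcript tables hold estimated counts that the authors derived, not scaled, with 14.7% to 15.6% of gene values not whole, and FPKM by the authors. Another 24 per-sample columns repeat these libraries on other scales and were not used. Counts were rounded, filtered with filterByExpr by group (12671 genes kept), scaled by TMM and tested with edgeR 4.0.16 (glmQLFit and glmQLFTest, residual degrees of freedom 4). Tests were two-sided, and p-values were adjusted by Benjamini-Hochberg over all tested genes and a threshold of 0.05. Intervals are from the same fit, in which the spread of each gene is drawn towards that of other genes. CPM use TMM-scaled library sizes. Alternatives used DESeq2 1.42.0, limma 3.58.1 and other edgeR settings. Of the tested members none but BMP1 has over 2% of its 50-base stretches in another gene (GENCODE release 29), and BMP1 has 4.66%. Coordinates and start windows are RefSeq's, found for 54 and 40 of the 54 members through Entrez numbers. Where a gene had more than 1 window, only the first was read. COL5A1, COL4A6 and SERPINH1 had 2 each, so their printed windows are not their only listed starts. In 17 of the 24 tested members with a window, the 30 bases after the start lay in the first 600 bases of a GENCODE transcript.

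Members, partner lists and marker lists were chosen with earlier results of these data known. Named genes were the listed members, chains called or at a mean of 1 FPKM or more, and called list members, or the one with the smallest p. Other genes were named after their values were seen. Intervals and counts cover counting and library spread only.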

Additional observations from a re-analysis of the deposited data

How the results depend on the processing

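Of all genes, DESeq2 called 337 and limma-trend on log2(FPKM + 1) or log2(FPKM + 0.1) called 147 and 151, where the edgeR fit called 570. Each limma-trend setting called 1 member, with 0 higher and 1 lower, and 2 list partners where the fit called 10, and DESeq2 called 1 lower member; the cause was not tested. With 1 library left out the counts ran from 204 to 463 for all genes, 3 to 6 for members, 2 to 5 for higher members, 1 to 3 for lower members and 4 to 9 for partners, from fewer samples. In that setting the log2 values of COL12A1 (-0.044 to 0.016), COL17A1 (-0.036 to 0.069) and PLOD3 (-0.033 to 0.026) changed sign around 0, none past the threshold. RLE factors, the unfiltered fit and the robust fit kept all 6 called members.

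The labels do not say whether the replicate numbers pair the libraries. Deviations from the group mean of same-numbered libraries correlated at 0.10, -0.09 and -0.23 for numbers 1, 2 and 3. Not every library correlated best with its own number. With 3 libraries per group, centred on the group mean, these values cannot exclude pairing. With the replicate block 483 genes, 6 members (the same 6) and 9 partners passed. Depth limits the low chains: the 95% confidence interval of COL4A3, with 52 counts, ran from -0.85 to 1.06 on the log2 scale, and that of COL16A1, with 302 counts, from -0.49 to 0.24.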

Other observations

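The deposited transcript table splits the counts of several members over RefSeq transcripts, which 50-base single-end reads separate only in part, so the shares are the authors' estimates and were not tested. P4HA1 was divided almost evenly between its 2 leading transcripts, with the first at 47.7% to 52.8% of the gene's counts in shcontrol and 51.8% to 56.0% in shVPS13C. For BMP1 the first of 2 transcripts held 57.4% to 61.9% in shcontrol and 59.4% to 64.3% in shVPS13C. The leading transcript of PLOD2 held 67.4% to 77.3% of its counts over all libraries, and that of COL12A1 62.4% to 74.9%. SERPINH1 and COL7A1 rested almost on 1 transcript each, with 92.9% to 95.6% and 93.7% to 95.3%. P4HA2 was spread over 16 listed transcripts, and its leading one held 13.7% to 27.3%. COL11A2 had 496 counts over all libraries, spread over 8 transcripts. Its leading transcript held 40.6%, 48.8% and 87.7% of the gene's counts in shcontrol 1, 2 and 3. In shVPS13C 1, 2 and 3 it held 75.8%, 67.2% and 0%, so the groups overlapped.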
